A study of Mus musculus with 8 samples.

Results

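The lung epithelial lineage transcription factors examined here were 10 genes: Nkx2-1, Foxa1, Foxa2, Foxp1, Foxp2, Gata6, Cebpa, Klf5, Elf5 and Grhl2. They were chosen by annotated gene symbol, and 21 of the 62976 spots on the array carried 1 of these symbols, among 43941 spots with a symbol and 24306 named genes. All 10 had at least 1 spot and 7 had several. For each gene the spot with the highest mean signal was used for the tests, and every spot was kept for comparison.

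The 8 arrays, 1 per sample, came from primary alveolar epithelial cells of type II (AECII) and type I (AECI), sorted by FACS from mouse lungs at embryonic day E18.5 after tamoxifen had been given to the pregnant females at E14.5 and again at E15.5. The groups, of 2 biological replicates each, were experimental AECII and control AECII, and experimental AECI and control AECI. Experimental samples carry the name Fgfr2bflox, a floxed allele of Fgfr2b, the epithelial receptor for several Fgf ligands, and the series title places the inhibition in Sftpc-expressing cells. All embryos were exposed to tamoxifen, controls included, but the control genotype was obtained from another set of females, so that genotype and litter cannot be told apart. No Cre driver, sort gate, allele of the controls, mouse strain or number of embryos behind a sample was given in the sources used here, and p-values measure only the spread between these samples.

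NKX2-1 is the homeodomain protein that marks the lung from its first specification in the foregut and stays on in the lung epithelium, where it binds genes of both alveolar cell types. FOXA1 and FOXA2 are forkhead proteins that open chromatin and act with it, FOXP1 and FOXP2 are forkhead repressors of the developing lung epithelium, and GATA6 is a zinc finger protein of distal epithelial differentiation. CEBPA, a leucine zipper protein, and KLF5, a Krüppel-like zinc finger protein, are known in mice for the maturation of the alveolar epithelium before birth. ELF5 is an ETS factor of the distal tip that responds to Fgf signaling in embryonic mouse lung, and GRHL2 maintains genes of epithelial junctions.

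Promoters are shown here for Cebpa, which gave the only difference past the test threshold, for Elf5, which gave the largest difference between AECII and AECI, and for Foxa1, 1 of the forkhead genes with a FOX motif in its promoter. From the RefSeq promoter table of GRCm38.p6, 11 start sites of 6 of the genes were used (Nkx2-1, Foxa1, Foxa2, Foxp1, Cebpa and Elf5). Foxp2, Klf5 and Grhl2 had no entry there, and Gata6 was left out of the promoter search. Counts among the 11 promoters therefore say nothing about these other genes. Each line gives the 250 bases before a start site, 5′ to 3′ on the strand of the gene, at chr7:35119043-35119292 on the plus strand for Cebpa, at chr2:103411848-103412097 and chr2:103423818-103424067 on the plus strand for start 1 and start 2 of Elf5, and at chr12:57546112-57546361 on the minus strand for Foxa1. Capitals mark a TATA box (TATAAA) in Cebpa, a C/EBP motif (TTGCNNAA) in Elf5 and a FOX motif (TGTTTNC, found on the other strand as GTAAACA) in Foxa1.
Cebpa: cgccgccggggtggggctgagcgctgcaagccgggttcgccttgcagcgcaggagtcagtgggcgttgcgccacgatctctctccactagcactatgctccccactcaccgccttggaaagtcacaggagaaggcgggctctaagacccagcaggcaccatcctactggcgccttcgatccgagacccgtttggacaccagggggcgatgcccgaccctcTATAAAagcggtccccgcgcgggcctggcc
Elf5, start 1: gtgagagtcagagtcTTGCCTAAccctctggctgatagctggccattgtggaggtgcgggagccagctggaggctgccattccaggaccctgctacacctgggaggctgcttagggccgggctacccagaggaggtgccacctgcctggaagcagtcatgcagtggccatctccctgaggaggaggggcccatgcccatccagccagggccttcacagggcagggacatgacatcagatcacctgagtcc
Elf5, start 2: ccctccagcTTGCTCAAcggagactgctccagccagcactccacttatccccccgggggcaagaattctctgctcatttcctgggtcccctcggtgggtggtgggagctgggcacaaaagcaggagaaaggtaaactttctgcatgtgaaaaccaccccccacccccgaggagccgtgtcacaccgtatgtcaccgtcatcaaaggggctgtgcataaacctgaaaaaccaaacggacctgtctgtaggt
Foxa1: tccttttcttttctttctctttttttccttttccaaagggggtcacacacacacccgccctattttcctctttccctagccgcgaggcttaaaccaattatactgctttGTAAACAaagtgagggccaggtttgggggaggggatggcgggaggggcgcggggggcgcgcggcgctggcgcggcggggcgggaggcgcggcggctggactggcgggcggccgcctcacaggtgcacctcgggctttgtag

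The motifs were searched on both strands in the 300 bases that run to 50 bases past each start, and in all 32851 promoters of the table in the same way. Cebpa held its TATA box 30 bases before the start, and 2 of the 11 promoters (the other being start 3 of Foxa2) and 13.6% of all promoters held one somewhere in the window. Both starts of Elf5 held the C/EBP motif, which is that of the CEBPA family, at 235 bases before start 1 and 241 bases before start 2, as did start 2 of Foxp1, making 3 of the 11 promoters, against 10.8% of all promoters. Foxa1 held the FOX motif 141 bases before its start and start 1 of Foxp1 held it at 167 bases, 2 of the 11 promoters against 20.5% of all promoters. The NKX2-1 motif (TNAAGTG, 11.5% of all promoters), the ETS motif (CCGGAAG, 8.86%), the GATA motif (AGATAAG, 3.04%) and the GRHL motif (AACNNGTT, 4.20%) were in 0 of the 11 promoters, and the KLF motif (CCNCNCCC, 49.5%) was in 7. A match describes the letters and not binding.

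The values are log2 signals, so that a difference of 1 is a doubling. Over all spots the median was 5.18, the lower quartile 3.07 and the highest value 16, and no detection call was used. Replicate arrays correlated at 0.951 to 0.978 and arrays of different populations at 0.936 to 0.951 across genes. The type I markers averaged 10.1 to 10.9 on AECII arrays and 13.3 to 13.8 on AECI arrays (10 of 10 measured), and the type II markers averaged 13.5 to 13.6 on AECII arrays and 12.5 to 12.7 on AECI arrays (10 of 10 measured). Sftpc itself read 15.8 to 15.9 on AECII arrays and 15.4 to 15.6 on AECI arrays. The targeted gene, Fgfr2, read 12.24 and 12.33 in experimental AECII and 12.60 and 12.62 in control AECII, and 11.07 and 11.38 in experimental AECI and 11.03 and 11.37 in control AECI. The labels do not say whether its spot lies in the deleted part, so this is no check of the genotype. The arrays of control AECII replicate 2 and control AECI replicate 1 showed a male pattern of Xist (6.53 and 3.96, against 13.3 to 13.9 elsewhere) and Eif2s3y (10.4 and 10.6, against 4.33 to 5.93), so sex was not balanced over genotype.

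The lineage factors were bright on these arrays and had a lower median spread between replicates than all genes together. The median SD of the 10 genes between replicates was 0.07 in experimental AECII, 0.13 in control AECII, 0.26 in experimental AECI and 0.14 in control AECI, while over all genes it was 0.23, 0.23, 0.32 and 0.35 in the same groups. Every brightest spot read above the median of all spots on every array, the lowest value being 6.60 for Gata6 and the highest 15.3 for Cebpa.

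**Figure D1:**
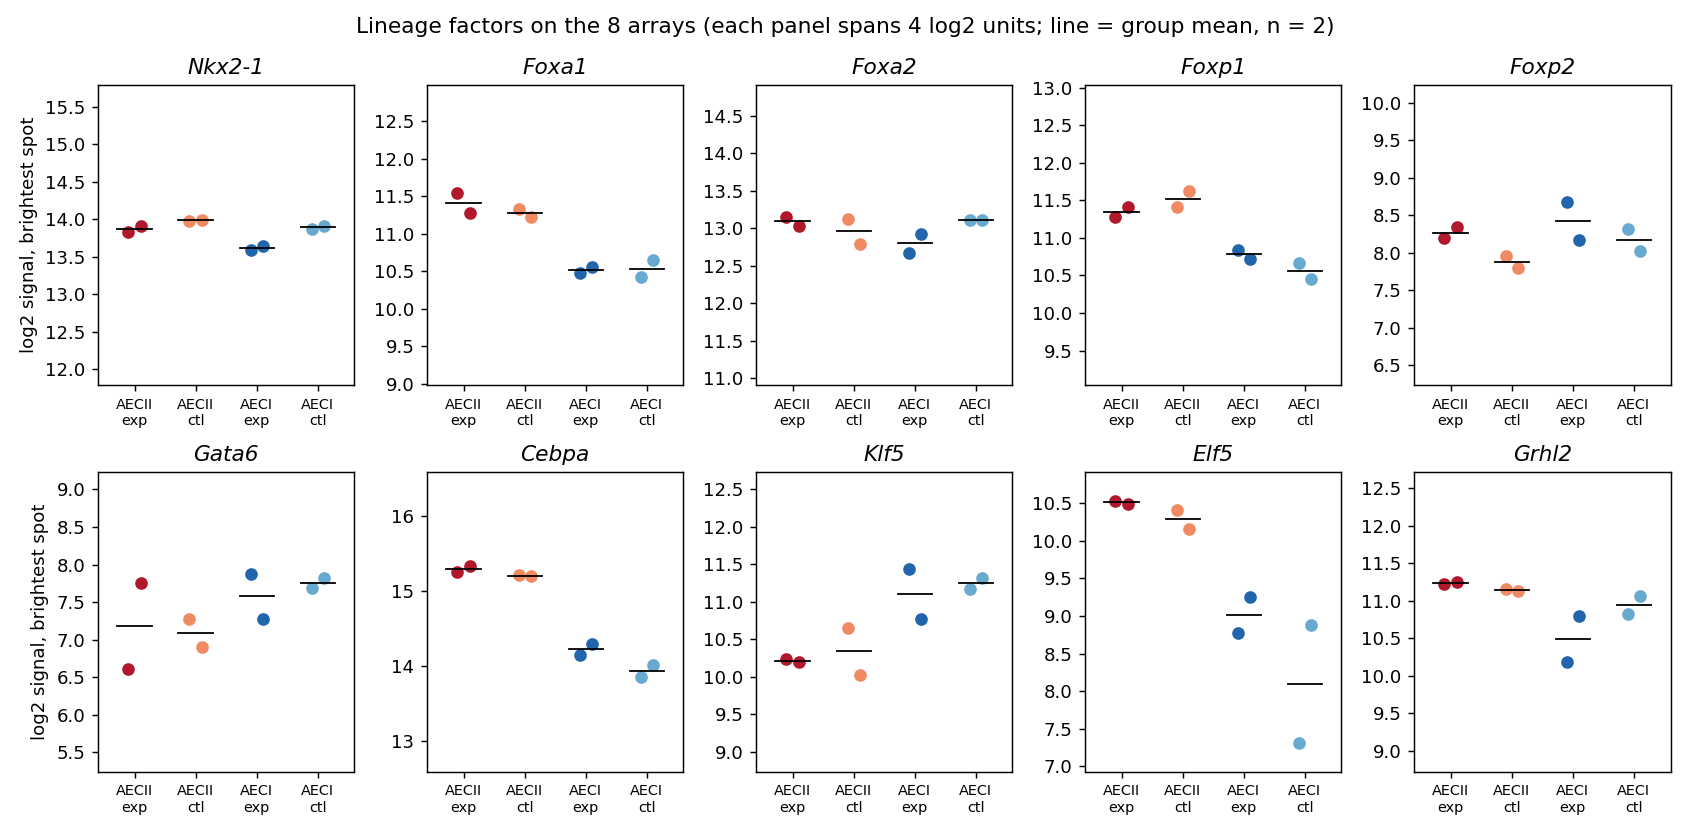
Log2 signal of the brightest spot of each lineage factor on the 8 arrays, with AECII left of AECI and experimental (exp) left of control (ctl). Points are arrays, lines are group means (n = 2), and every panel spans 4 log2 units. Cebpa, Elf5, Foxa1 and Foxp1 sit higher on all 4 AECII arrays than on all 4 AECI arrays, Klf5 sits lower, and Nkx2-1 stays between 13.6 and 14.0.

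The question for the sorted populations was whether the factors differ between AECII and AECI within each genotype. In experimental lungs, 7 of the 10 genes were higher and 3 lower in AECII than in AECI by their means, with a median log2 difference of 0.43 against 0.01 over all genes, and in control lungs 6 were higher and 4 lower, with a median of 0.15 against 0.0048. Only Cebpa in control lungs passed the test. In experimental lungs 0 of the 10 were called by limma at an adjusted p of 0.05 in either direction, where 2.54% of all genes were, and 6 of the 10 had an unadjusted p under 0.05, as 21.6% of all genes did. In control lungs 1 was called, higher in AECII, where 1.30% of all genes were called higher and 2.83% in either direction, and 5 had an unadjusted p under 0.05, as 16.7% of all genes did.

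The 2 AECII arrays lay wholly above the 2 AECI arrays for 7 of the 10 genes in experimental lungs, against 28.2% of all genes, and wholly below for 1, against 26.7%. In control lungs these counts were 6 above, against 23.5%, and 3 below, against 22.1%. With 2 arrays in each group the smallest two-sided p of an exact permutation test is 0.333, so single genes were judged by the fit over all arrays alone. In these bulk samples fewer cells of a type and less RNA per cell cannot be told apart.

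Cebpa is a regulator of type II cell maturation. It read 15.25 and 15.33 in experimental AECII and 15.21 and 15.20 in control AECII, against 14.15 and 14.30 in experimental AECI and 13.85 and 14.02 in control AECI. All 4 AECII arrays lay above all 4 AECI arrays. The log2 difference was 1.27 in control lungs (SE 0.22, 95% interval 0.74 to 1.81, a fold of 2.42, limma adjusted p = 0.043) and 1.06 in experimental lungs (SE 0.22, 95% interval 0.53 to 1.60, a fold of 2.09, adjusted p = 0.065). The call in control lungs lay close to the threshold. It was lost when any 1 of the 8 arrays was left out (log2 difference 1.19 to 1.36) and without both arrays of male pattern (1.20). Without either control AECII array, or without both arrays of male pattern, no gene at all was called in control lungs. The loss in those fits is therefore not particular to Cebpa. Its AECII values lie close to the top of the scale, at 16.

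Elf5, the ETS factor, showed the largest mean difference and the widest replicate spread. It read 10.54 and 10.50 in experimental AECII and 10.41 and 10.16 in control AECII, against 8.78 and 9.26 in experimental AECI and 7.31 and 8.88 in control AECI. The groups did not overlap between populations, but the 2 control AECI arrays differed by more than any other pair of replicates of a lineage factor. The log2 difference between AECII and AECI was 1.50 in experimental lungs (SE 0.52, limma adjusted p = 0.167) and 2.19 in control lungs (SE 0.52, adjusted p = 0.090), which did not pass. Without control AECI replicate 2, the higher of its pair, the control difference was 2.98 and was called (adjusted p = 0.043), and without replicate 1 it was 1.41.

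Among the forkhead factors, the arrays of Foxa1 and Foxp1 separated the populations in both genotypes, and those of Foxa2 and Foxp2 in 1 genotype each. Foxa1 read 11.54 and 11.28 in experimental AECII and 11.34 and 11.22 in control AECII, against 10.48 and 10.56 in experimental AECI and 10.43 and 10.65 in control AECI. Its log2 difference was 0.89 in experimental lungs (SE 0.24, limma adjusted p = 0.097) and 0.74 in control lungs (SE 0.24, adjusted p = 0.187), below the threshold in both although no arrays overlapped. Foxp1 read 11.29 and 11.41 in experimental AECII and 11.42 and 11.63 in control AECII, against 10.84 and 10.72 in experimental AECI and 10.67 and 10.45 in control AECI. The differences were 0.57 in experimental lungs (SE 0.23, adjusted p = 0.230) and 0.97 in control lungs (SE 0.23, adjusted p = 0.097), and again no arrays overlapped.

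Foxa2, the close relative of Foxa1, read 13.15 and 13.03 in experimental AECII and 13.12 and 12.79 in control AECII, against 12.67 and 12.93 in experimental AECI and 13.10 and 13.11 in control AECI. Its difference was 0.29 in experimental lungs (adjusted p = 0.544) and -0.15 in control lungs (adjusted p = 0.840), where the arrays overlapped. No shift in 1 direction was common to both genotypes. Foxp2 read 8.19 and 8.34 in experimental AECII and 7.95 and 7.80 in control AECII, against 8.67 and 8.16 in experimental AECI and 8.32 and 8.02 in control AECI. The arrays overlapped in experimental lungs (difference -0.15, adjusted p = 0.792) and not in control lungs (-0.30, adjusted p = 0.681). On the second, dimmer spot of Foxp2 the difference in experimental lungs was -1.30 without overlap (limma adjusted p = 0.141 over all spots). In control lungs it was -0.20 there, with overlap.

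On its brightest spot Nkx2-1 held nearly the same signal on every array. It read 13.83 and 13.91 in experimental AECII and 13.98 and 13.99 in control AECII, against 13.59 and 13.64 in experimental AECI and 13.87 and 13.91 in control AECI. The difference between AECII and AECI was 0.26 in experimental lungs (95% interval -0.26 to 0.77, adjusted p = 0.540) and 0.09 in control lungs (95% interval -0.42 to 0.61, adjusted p = 0.897). In both genotypes the arrays did not overlap, and the bounds leave room for less than a doubling in either direction. The second spot, given below, ranged more widely (11.79 to 12.78), and on it the populations overlapped in control lungs.

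Klf5, Gata6 and Foxp2 had lower means in AECII than in AECI in both genotypes on their brightest spots, and none of these differences passed. Klf5 read 10.24 and 10.20 in experimental AECII and 10.66 and 10.03 in control AECII, against 11.44 and 10.78 in experimental AECI and 11.18 and 11.32 in control AECI. The log2 difference was -0.89 in experimental lungs (SE 0.34, limma adjusted p = 0.198) and -0.91 in control lungs (SE 0.34, adjusted p = 0.250), with no overlap of arrays in either. Its second spot had the opposite sign.

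Gata6, the dimmest of the 10, read 6.60 and 7.75 in experimental AECII and 7.27 and 6.90 in control AECII, against 7.87 and 7.28 in experimental AECI and 7.69 and 7.82 in control AECI. The experimental arrays overlapped (difference -0.40, adjusted p = 0.648), and the control arrays did not (difference -0.67, adjusted p = 0.528). The second, dimmer spot of Gata6 had the opposite sign, at 0.41 in experimental and 0.12 in control lungs, with overlap in both. Grhl2 read 11.22 and 11.26 in experimental AECII and 11.16 and 11.13 in control AECII, against 10.19 and 10.80 in experimental AECI and 10.82 and 11.06 in control AECI. All 4 AECII arrays lay above the AECI arrays, by 0.74 in experimental lungs (SE 0.28, adjusted p = 0.200) and 0.20 in control lungs (SE 0.28, adjusted p = 0.811).

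**Figure D2:**
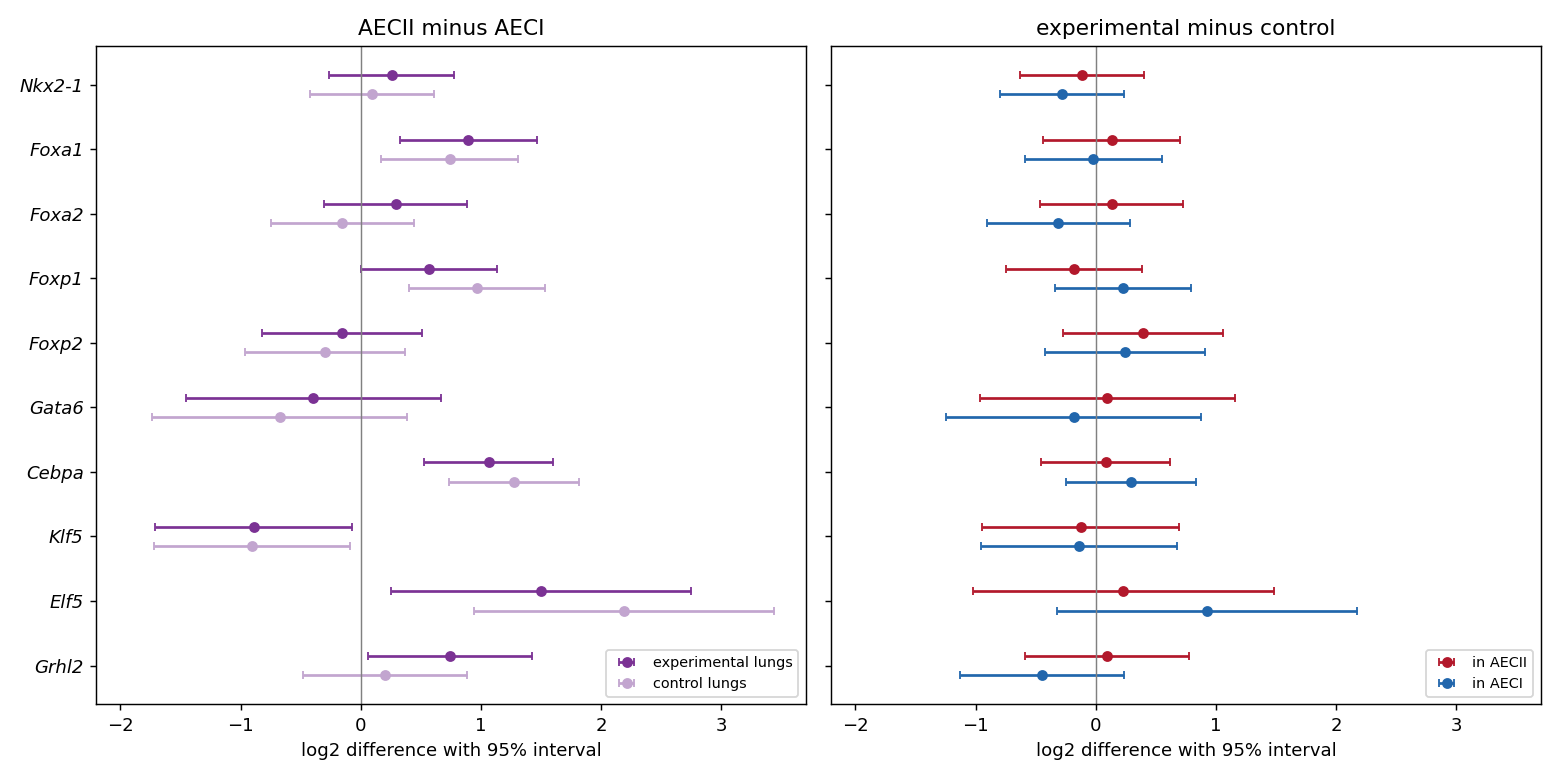
Log2 difference with its 95% interval from limma for each lineage factor, AECII minus AECI in experimental and control lungs (left) and experimental minus control in AECII and AECI (right). In the left panel the intervals of Foxa1, Foxp1, Cebpa, Klf5 and Elf5 lie on 1 side of 0 in both genotypes, before adjustment, and in the right panel every interval holds 0.

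The order of the 4 groups by mean signal differed between genes. For Cebpa it ran from experimental AECII at 15.29 ± 0.06 over control AECII at 15.21 ± 0.01 and experimental AECI at 14.23 ± 0.11 to control AECI at 13.93 ± 0.12 (SD, n = 2 each), with no overlap between neighbours. Elf5 had the same order, at 10.52 ± 0.03, 10.29 ± 0.18, 9.02 ± 0.34 and 8.10 ± 1.11, but the 2 AECI groups overlapped. For Foxp1 both AECII groups (experimental 11.35 ± 0.09, control 11.53 ± 0.15) lay above both AECI groups (experimental 10.78 ± 0.08, control 10.56 ± 0.16), again with no overlap between neighbours. In Foxa1 and Klf5 the 2 genotypes overlapped within each population, and only the step between populations was free of overlap. For Foxa2 and Gata6 all neighbours in the order overlapped.

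The average level of the markers of other cell types given below differed between the sorted populations, except endothelial markers in control lungs. Neuroendocrine markers (3 of 4 measured) averaged 2.29 to 3.30 over all arrays, near the lower quartile of all spots (3.07), and are not compared. Ciliated cell markers (7 of 8 measured) averaged 10.5 to 10.9 in experimental AECII and 9.44 to 9.72 in control AECII, against 7.08 to 7.46 in experimental AECI and 6.05 to 6.78 in control AECI. Club and secretory markers (7 of 7) averaged 10.5 to 11.0 in experimental AECII and 9.87 to 9.91 in control AECII, against 8.87 to 8.97 in experimental AECI and 8.02 to 8.07 in control AECI. In the other direction, mesenchymal markers (10 of 10) averaged 8.32 to 8.49 in experimental AECII and 7.76 to 8.09 in control AECII, against 9.55 to 9.81 in experimental AECI and 8.72 to 9.09 in control AECI, and mesothelial markers (5 of 5) averaged 6.01 to 6.54 over the AECII arrays and 8.74 to 9.32 over the AECI arrays. Immune markers (6 of 6) averaged 8.84 to 9.30 over the AECII arrays and 8.0 to 8.53 over the AECI arrays. Endothelial markers (8 of 8) averaged 5.70 to 5.80 in experimental AECII and 5.03 to 5.15 in control AECII, against 4.68 to 4.89 in experimental AECI and 5.02 to 5.26 in control AECI. Erythroid markers (5 of 6) averaged 7.44 to 7.54 in experimental AECII and 9.44 to 10.3 in control AECII, against 5.70 to 6.51 in experimental AECI and 8.96 to 9.15 in control AECI. Several of the lineage factors are also known from airway epithelium, and the part of any of these cell types in the differences above was not tested.

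**Figure D3:**
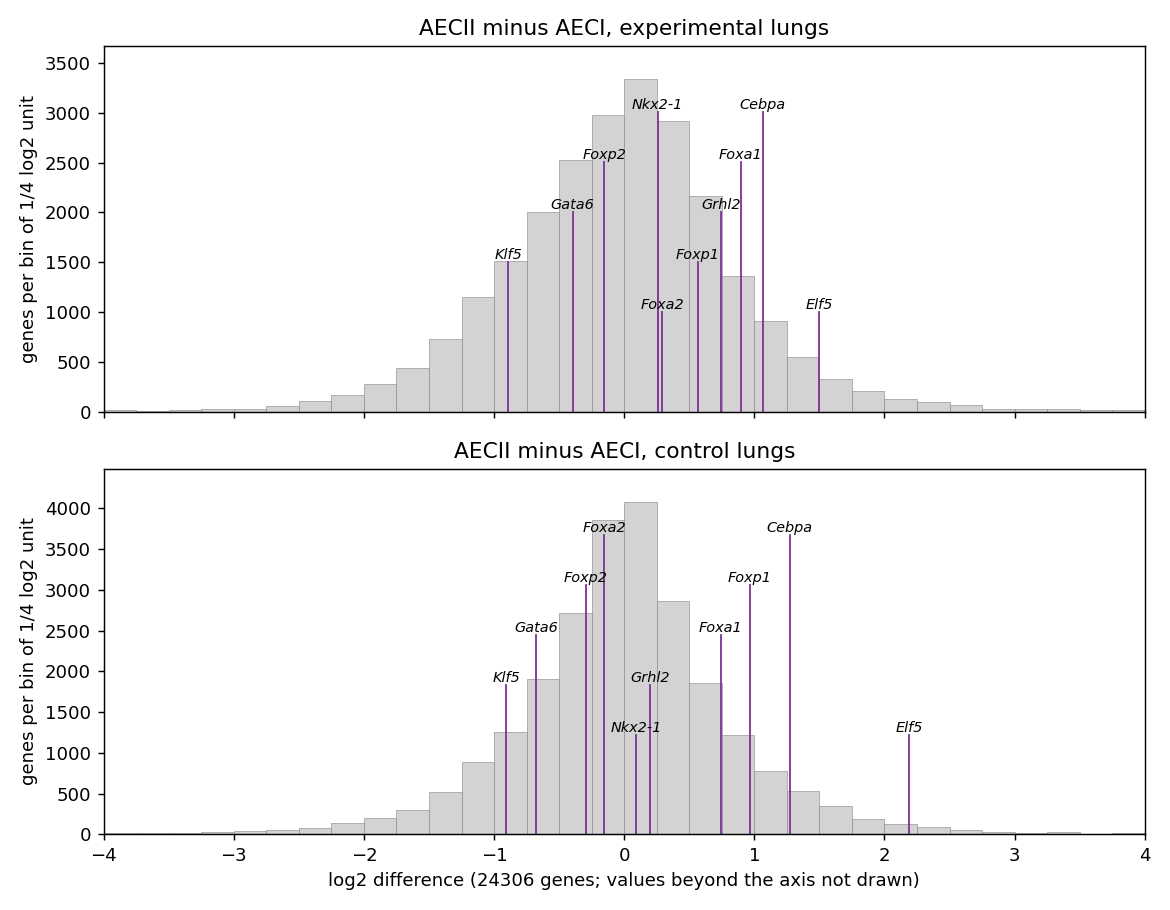
Histogram of the log2 difference AECII minus AECI over 24306 named genes in experimental (top) and control (bottom) lungs, in bins of equal width, with a line at the value of each lineage factor (the height of a line has no meaning). Elf5 lies above 95.8% of genes in experimental and 98.8% in control lungs, Cebpa above 90.9% and 94.3%, and Nkx2-1 lies above 63.7% and 56.2%.

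The question for the genotype was whether the factors differ between experimental and control cells of 1 population. None of the 10 passed in either population. In AECI 0 were called, where 0.00411% of all genes (1 gene) were, with adjusted p from 0.515 to 0.982, and 0 had an unadjusted p under 0.05, as 12.4% of all genes did. In AECII 0 were called, where 0.00% of all genes were, with adjusted p from 0.747 to 0.973, and again 0 had an unadjusted p under 0.05, as 8.24% of all genes did.

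In AECI the log2 differences of the 10 genes ran from -0.45 for Grhl2 to 0.92 for Elf5, with a median of -0.08 against 0.04 over all genes. The experimental arrays lay wholly above the control arrays for 2 genes, Cebpa (0.29) and Foxp1 (0.22), against 21.2% of all genes, and wholly below for 3, Nkx2-1 (-0.28), Foxa2 (-0.31) and Grhl2, against 18.6%. The 95% interval for Nkx2-1 was -0.80 to 0.24 and that for Elf5 was -0.33 to 2.17, so the data bound the first far more closely than the second. Without control AECI replicate 1, the array at 7.31, the difference of Elf5 was 0.14.

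In AECII the differences ran from -0.18 for Foxp1 to 0.39 for Foxp2, with a median of 0.09 against 0.07 over all genes. Experimental arrays lay wholly above control arrays for 4 genes, Foxp2, Elf5 (0.23), Grhl2 (0.09) and Cebpa (0.08), against 27.3% of all genes, and wholly below for 2, Foxp1 and Nkx2-1 (-0.12), against 19.8%. The intervals for Nkx2-1 (-0.63 to 0.40), Cebpa (-0.45 to 0.62), Foxa1 (-0.44 to 0.70) and Foxa2 (-0.46 to 0.73) all lay within 1 log2 unit of 0, while that for Elf5 ran from -1.02 to 1.48.

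Averaged over both populations, the genotype differences ran from -0.20 to 0.58 with a median of -0.01 against 0.05 over all genes, and 0 were called, where 0.00411% of all genes were, with 0 at an unadjusted p under 0.05, against 12.1% of all genes. On the brightest spots Foxp1 was higher without overlap in experimental AECI and lower without overlap in experimental AECII, and Grhl2 the other way round. Other spots differed. Foxp1 was lower in both experimental populations on its spots 2 to 5 by brightness, and only its dimmest had the signs of the brightest. The second spot of Grhl2 was higher without overlap in both (0.97 in AECI and 0.89 in AECII). The difference between the genotype differences of the 2 populations did not pass for any of the 10 genes on the brightest spots. This interaction ran from -0.69 to 0.54 (limma adjusted p from 0.728 to 0.996). It gave 0 calls, where 0.00% of all genes were called, and 0 at an unadjusted p under 0.05, against 8.62%. By the marker averages given above, ciliated, club and mesenchymal markers lay higher in experimental than in control cells of both populations without overlap of arrays, erythroid markers lay lower in both, and endothelial markers lay higher in experimental AECII and lower in experimental AECI. Type I markers also lay lower in experimental than in control cells, at 10.1 to 10.4 against 10.7 to 10.9 in AECII and at 13.3 against 13.7 to 13.8 in AECI. Their part in the genotype differences was not tested.

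Different spots of a gene did not always agree. When every spot was fitted on its own, 0 of the 21 were called for AECII against AECI in experimental lungs, where 2.08% of all spots were, and 0 in control lungs, where 2.34% were. At an unadjusted p under 0.05 these counts were 10 in experimental lungs, against 19.4% of all spots, and 8 in control lungs, against 16.2%. In experimental lungs 16 spots had a positive and 5 a negative difference, in control lungs 15 and 6, and in each of these comparisons the spots of 4 of the 7 genes with several spots shared a sign. For the genotype, its average and the interaction 0 of the 21 spots were called. At an unadjusted p under 0.05 there were 4 in AECI, 0 in AECII, 5 for the average and 1 for the interaction, all on dimmer spots. The shares of all genes, by brightest spot, were 12.4%, 8.24%, 12.1% and 8.62%, and no share of all spots is given.

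Elf5 kept its direction on its dimmer spot, which read 7.86 and 7.05 in experimental AECII and 8.15 and 8.21 in control AECII, against 6.16 and 5.87 in experimental AECI and 6.98 and 6.61 in control AECI. The difference between AECII and AECI there was 1.43 in experimental and 1.38 in control lungs, with no overlap. For the genotype this spot turned the sign, at -0.78 in AECI and -0.73 in AECII. Klf5 disagreed between spots for the populations, since its dimmer spot read 6.15 and 6.69 in experimental AECII and 6.63 and 6.52 in control AECII, against 5.91 and 5.13 in experimental AECI and 6.24 and 6.06 in control AECI, a difference of 0.90 in experimental and 0.42 in control lungs.

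The 6 spots of Foxp1 ranged from a mean of 11.1 down to 4.2. The 4 brightest all had a positive difference between AECII and AECI in both genotypes (0.50 to 1.32 in experimental and 0.47 to 1.16 in control lungs), and the 2 dimmest had opposite signs in the 2 genotypes. The next to dimmest read 2.38 and 3.28 in experimental AECI against 5.62 and 5.93 in control AECI. The experimental values lie near the lower quartile of all spots (3.07), so no size is given for that difference, which did not pass (adjusted p = 0.167 over all spots), and the brightest spot of the gene gave 0.22. The second spot of Nkx2-1 read 12.63 and 12.48 in experimental AECII and 12.78 and 12.41 in control AECII, against 12.42 and 11.79 in experimental AECI and 12.31 and 12.68 in control AECI, with differences between AECII and AECI of 0.45 in experimental and 0.10 in control lungs. The second spot of Grhl2 had a genotype difference of 0.97 in AECI, opposite in sign to its brightest spot.

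**Figure D4:**
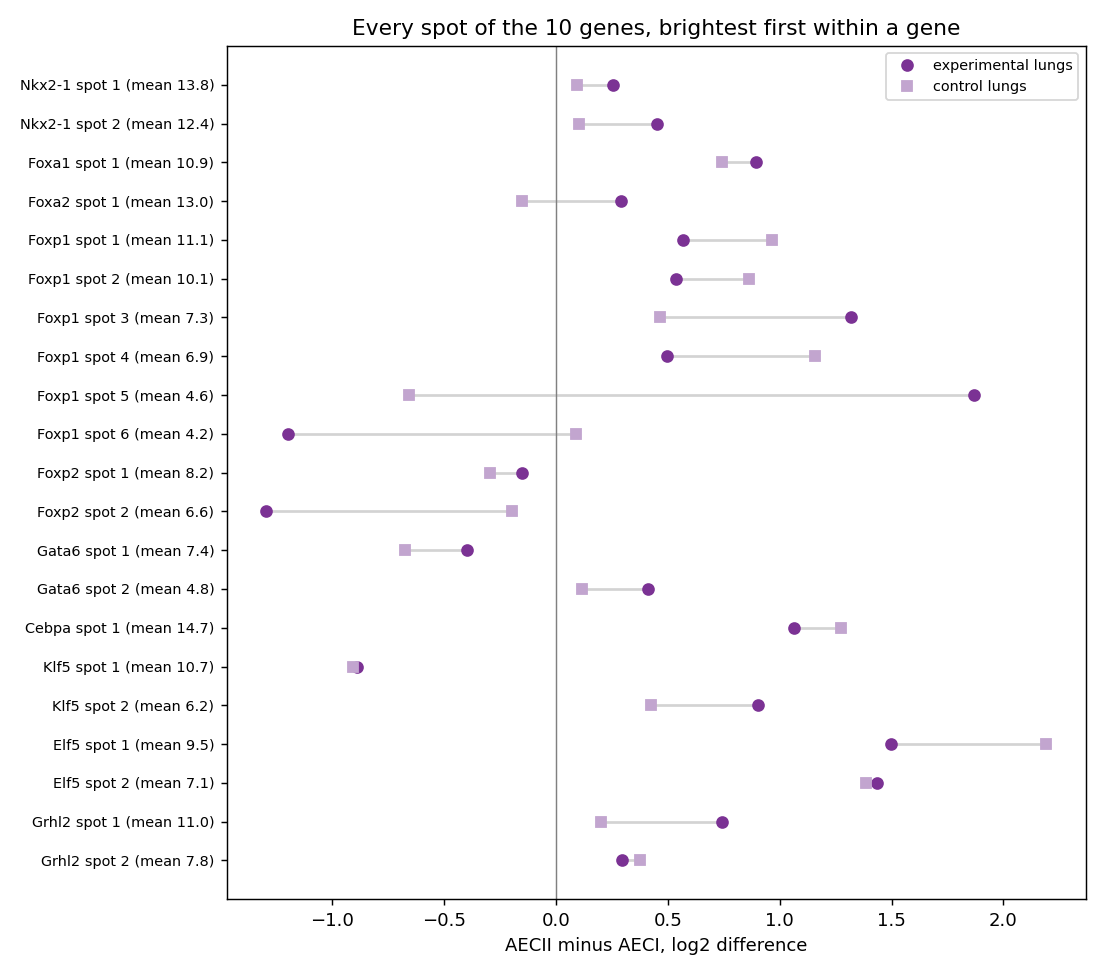
Log2 difference AECII minus AECI for each of the 21 spots, in experimental (circles) and control (squares) lungs, with the mean log2 signal of the spot over the 8 arrays in its label. Both spots of Elf5 lie between 1.38 and 2.19, the 4 brightest spots of Foxp1 lie above 0, and the 2 spots of Klf5 lie on opposite sides of 0.

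Target genes of NKX2-1 differed between the populations far more than Nkx2-1 did. The type I list used here holds every type I marker averaged above, with Spock2 as the only other gene. Its direction between the sorted populations therefore repeats those marker averages and is no separate result about NKX2-1. Of 11 genes of type I cells that NKX2-1 is known to bind or need in mice, all 11 had a negative difference between AECII and AECI in both genotypes, with medians of -3.22 in experimental and -3.55 in control lungs, and 10 passed as lower in each, where 1.27% of all genes did in experimental and 1.53% in control lungs. Spock2, a matrix proteoglycan (-5.60 in experimental and -4.91 in control lungs, limma adjusted p = 0.0091 and 0.011), Aqp5, the water channel (-4.65 and -3.95, adjusted p = 0.0047 and 0.0058), and Pdpn, the membrane glycoprotein podoplanin (-4.32 and -4.59, adjusted p = 0.0082 and 0.0078), were among them. Ager, the type I cell receptor RAGE, was the 1 gene of the list that did not pass in either genotype (-1.02 and -1.01). With 1 experimental AECII array left out, whichever of the 2, limma called 0 of all 24306 genes in experimental lungs (3295 and 3707 at an unadjusted p under 0.05), and with 1 control AECII array left out it called 0 in control lungs (2822 and 2879), so that every call named in this and the following paragraphs is lost there. Without 1 of the other arrays, 3 to 9 genes of this list were called in experimental and 6 to 10 in control lungs, all lower. For the same arrays the difference of Nkx2-1 was 0.26 in experimental and 0.09 in control lungs.

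Of 15 genes of type II and secretory cells tied to NKX2-1, 14 had a positive difference in each genotype, with medians of 1.01 in experimental and 1.0 in control lungs. This list holds every type II marker averaged above, and Scgb1a1 and Scgb3a2 are also club and secretory markers. Its direction likewise repeats those marker averages. In experimental lungs 2 passed, Scgb1a1 (2.95, adjusted p = 0.032) and Scgb3a2 (2.35, adjusted p = 0.034), which are secretoglobins of club cells, where 1.28% of all genes passed as higher. In control lungs 6 passed, the same secretoglobins (3.28 and 2.12), the surfactant proteins Sftpb (1.59) and Sftpd (1.22), the surfactant protease Napsa (1.44) and the phospholipid enzyme Lpcat1 (1.62), where 1.30% of all genes did. With 1 array left out, the experimental calls were lost except that of Scgb1a1 without experimental AECI replicate 2, and the control calls were lost except those of Lpcat1, Scgb1a1 and Scgb3a2 when it was an experimental AECI array. No gene of either list passed for the genotype in either population, and the median genotype difference of the type I list was -0.38 in AECI and -0.22 in AECII, against 0.04 and 0.07 over all genes. In AECI all 11 genes of the type I list had a negative difference and in AECII 10 did.

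**Figure D5:**
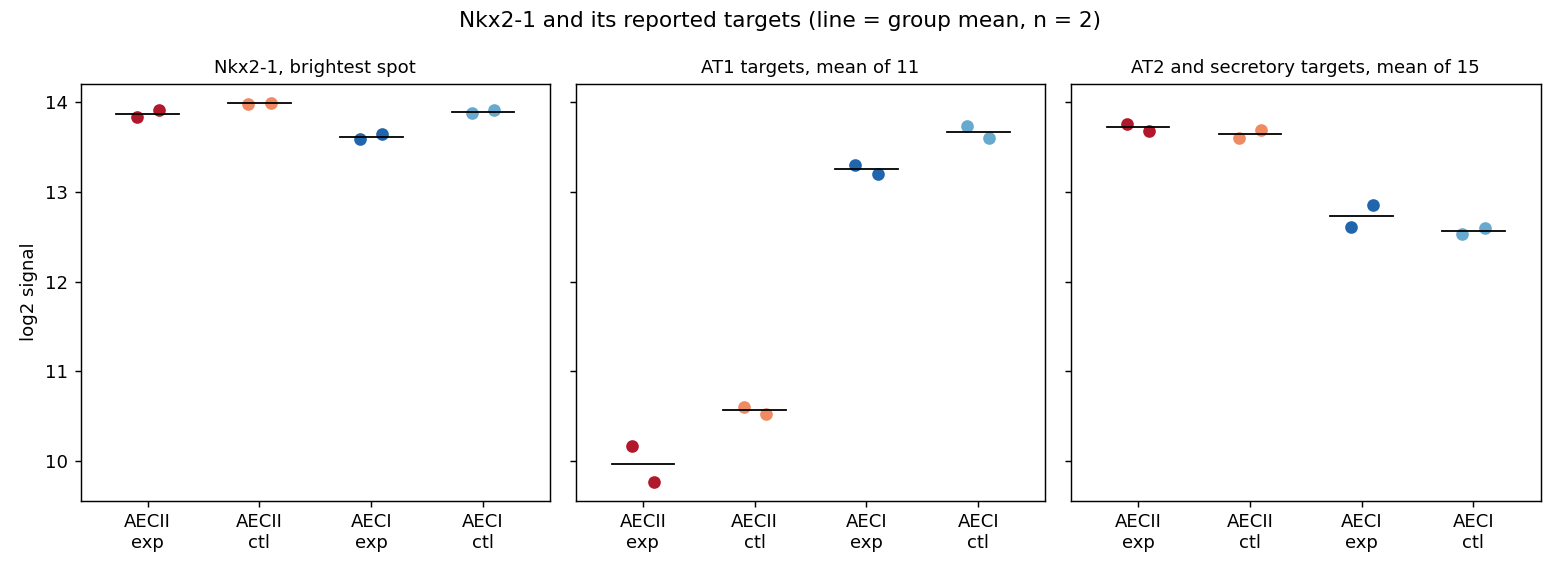
Log2 signal of the brightest spot of Nkx2-1 on the 8 arrays (left), with lines at group means (n = 2). Beside it stand the mean log2 signals of 11 type I cell targets (middle) and 15 type II and secretory targets (right). The type I targets average 9.77 to 10.6 on AECII arrays and 13.2 to 13.7 on AECI arrays, whereas Nkx2-1 stays within 13.6 to 14.0 on all arrays.

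Genes of epithelial junctions and identity that GRHL2 is known to activate, 16 in all, gave 0 calls in either genotype for AECII against AECI. Of all genes 2.54% were called in experimental and 2.83% in control lungs. In each genotype 8 differences were positive and 8 negative, with medians of 0.07 in experimental and 0.03 in control lungs. For the genotype these genes gave 0 calls too, where 0.00411% of all genes were called in AECI and 0.00% in AECII. The medians were 0.06 in AECI and 0.17 in AECII. Of 24 transcriptional partners and cofactors, Tead4 and Wwtr1 passed in experimental lungs, both lower in AECII (-2.57, adjusted p = 0.030, and -1.35, adjusted p = 0.047), and Tead4 (-2.82), Wwtr1 (-1.92) and Tead1 (-1.44) passed in control lungs, beside the 1.27% and 1.53% of all genes that passed as lower. With 1 array left out, these calls were lost except that of Tead4 in experimental lungs when this was a control AECI array and those of Tead4 and Wwtr1 in control lungs when it was an experimental AECI array. Wwtr1 encodes TAZ, the Hippo pathway coactivator that binds NKX2-1 as well as TEAD proteins. The median of that list was -0.13 in experimental and -0.22 in control lungs, and 0 passed for the genotype.

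Relatives of the 10 factors in the same gene families (37 of 38 measured) gave 0 calls in experimental lungs, where 2.54% of all genes were called, and 2 in control lungs, where 2.83% were. Both calls were lost when any 1 of the 8 arrays was left out. Elf4, another factor of the ETS family, was lower in AECII (-2.16, SE 0.36, adjusted p = 0.039), where Elf5 read higher. The difference of Elf4 in experimental lungs was -1.76. Tfcp2l1, a relative of Grhl2, was higher in AECII (1.50, SE 0.27, adjusted p = 0.047), with 1.38 in experimental lungs. The median difference of these relatives was -0.02 in experimental lungs and -0.0022 in control lungs, and for the genotype 0 were called, with medians of -0.11 in AECI and -0.08 in AECII.

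For the 7 factors whose brightest spot spanned at least 1 log2 unit, the genes with the most similar profile over the 8 arrays were sought among 3420 genes with a mean of at least 8 and the same minimum span. Cebpa was followed most closely by Tmem164 (Pearson r = 0.999), Rab27b (0.994) and Rmdn2 (0.994). Elf5 was followed by Sms, the spermine synthase (0.988), Hexa (0.987) and Ppp1r14c (0.984), and Klf5 by Carmil1 (0.993), Rubcn (0.979) and Rab11fip1 (0.973). Foxa1 was followed by Kyat1 (0.991), Gzf1 (0.989) and Reep6 (0.989), Foxp1 by Tbc1d4 (0.989), Atp8a1 (0.988) and Ggcx (0.985), Grhl2 by Alas1 (0.951), Cnot6l (0.949) and Cd55 (0.949), and Gata6 by Wdtc1 (0.890), Dusp22 (0.867) and Sh2b3 (0.850). The 8 arrays fall into 2 populations, so that a shared step between them enters each of these correlations, which carry no test.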

How the data were processed

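The authors deposited 1 table of log2 signals that they had normalized between arrays, and limma is the tool in the submitters' processing notes, with no version. Background correction and scanning were not given in the sources used here. A log base of 2 follows from the range of values (1.34 to 16). The sorted values of the 8 arrays were within 0.0056 of each other, and they were used as deposited. Spots were named from the platform annotation, updated through RefSeq GRCm38.p6: 43941 of 62976 spots (69.8%) had 1 symbol. All 21 spots of the 10 genes carried the same symbol before and after the update.

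Per gene the brightest spot was used. The test was limma 3.58.1 in R 4.3.3 (lmFit with 4 group means over 8 arrays, eBayes without trend, 4 residual and 2.26 prior degrees of freedom), with Benjamini-Hochberg adjustment over 24306 genes for each contrast, of which there were 6, and calls at an adjusted p under 0.05. Intervals are at 95%. The number of arrays limits the precision. The members, gene lists and alternatives were chosen with earlier results of these data known. Named genes were the 10 members, list genes past the threshold (up to 6 per list and contrast) and the 3 genes most like a member over the 8 arrays. Ager, Fgfr2, Sftpc, Xist and Eif2s3y were named outside this rule, with their values seen.

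Alternatives were a mean-variance trend or robust prior, centring of arrays, other choices of spot, a filter on dim genes, array weights, the compared groups alone, a replicate block, sex terms and leaving out each array. The fit was tested on simulated data. Same-numbered replicates did not deviate together (correlation -0.10 to 0.04), so the numbers were not taken as pairs. Python 3.11.15 (numpy 2.4.6, pandas 2.3.3, matplotlib 3.10.9) served for tables and plots.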

Additional observations from a re-analysis of the deposited data

How the results depend on the processing

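The count of lineage factors called depended on the setting of the fit. For AECII against AECI in experimental lungs (0 called), it was 6 when the prior variance followed the mean signal (a trend). Cebpa, Foxa1, Elf5, Grhl2 and Foxp1 were then higher and Klf5 lower. The trend called 1375 of all 24306 genes higher and 1310 lower, against 310 and 308 in the main fit. With genes above the median of all spots the count of lineage factors was 2 (Cebpa and Foxa1). That filter called 1084 of 13650 genes higher and 1182 lower. In control lungs the main fit called 316 of all genes higher and 373 lower, the trend 1006 and 914. The filter called 783 of 13650 genes higher and 765 lower, and the mean of all spots 383 and 378 of 24306. There the count of lineage factors (1 in the main fit) was 5 with the trend (Cebpa, Foxp1, Elf5 and Foxa1 higher, Klf5 lower). It was 3 with genes above the median (Cebpa, Foxp1 and Elf5) and 2 with the mean of all spots (Cebpa and Elf5). It was 0 with array weights, 0 with the compared groups only, 0 with a replicate block, 0 with a crossed replicate block (chosen after seeing the data, since the 2 control groups correlated at -0.10), 0 without both arrays of male pattern and 0 with male pattern as a covariate. Leaving out each array in turn gave 0 to 1 in control lungs, the 1 being Elf5 without control AECI replicate 2, and 0 to 0 in the other comparisons. In the genotype comparisons, their average and the interaction 0 were called under every alternative run. For AECII against AECI in either genotype, 0 of all genes were called with the compared groups only and 0 without both arrays of male pattern. In control lungs array weights called 262 of all genes higher and 317 lower, and the replicate block 108 and 203. The crossed replicate block called 66 and 149 there, and male pattern as a covariate 144 and 227. With a replicate block, the type I targets of NKX2-1 (10 called in each) gave 8 calls in experimental and 10 in control lungs. The type II and secretory targets (2 and 6) gave 0 and 1, the partners (2 and 3) gave 0 and 1, and the relatives (0 and 2) gave 0 and 1. The cause of these shifts was not tested, except that the fit to the compared groups only and those without arrays hold fewer samples.

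Directions of members that did not pass turned under some settings. With the second brightest spot they were, for AECII minus AECI, Gata6 0.41 and Klf5 0.90 in experimental and Gata6 0.12 and Klf5 0.42 in control lungs, and for experimental minus control, Foxp1 -0.20, Elf5 -0.78 and Grhl2 0.97 in AECI, and Foxp2 -0.35, Gata6 -0.67 and Elf5 -0.73 in AECII. With the mean of all spots they were Gata6 0.0070 and Klf5 0.0053 (AECII minus AECI, experimental), Foxp1 -0.55 and Grhl2 0.26 (experimental minus control, AECI), and Gata6 -0.29 and Elf5 -0.25 (AECII). Without both arrays of male pattern, Foxa2 was 0.0096 (AECII minus AECI, control) and Foxa2 -0.035 and Gata6 -0.090 (experimental minus control, AECII). With male pattern as a covariate Gata6 was -0.031 and Elf5 -0.23, and with arrays centred on their median Cebpa was -0.0046 (all experimental minus control, AECII). Over the fits without 1 array, the range held both signs for Foxp2 (-0.41 to 0.10) and Gata6 (-0.97 to 0.18) in the experimental populations, Foxa2 (-0.32 to 0.015) in the control populations, Foxa1 (-0.13 to 0.089), Foxp2 (-0.0050 to 0.50), Gata6 (-0.48 to 0.11) and Klf5 (-0.48 to 0.19) for the genotype in AECI, and Foxa2 (-0.035 to 0.30), Gata6 (-0.48 to 0.67) and Klf5 (-0.44 to 0.19) for the genotype in AECII. Over all single-gene values of these alternatives, 694 of 758 kept direction and side of the threshold, 34 turned sign, 16 newly passed and 14, all of Cebpa in control lungs, no longer passed.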
